A study of Homo sapiens with 8 samples.

Results

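The cytosolic heat shock system was followed in 10 genes among the 16082 genes of the deposited table: HSP90AA1, HSP90AB1, HSPA1A, HSPA1B, HSPA8, HSPH1, HSPB1, DNAJB1, BAG3 and HSF1. They were taken by symbol, and all 10 of 10 had a row and passed the filter on low counts. The RNA came from KYSE150, an established human esophageal squamous carcinoma line. Polyadenylated RNA of 8 libraries was sequenced. The 4 control libraries and the 4 libraries labelled as carrying a short hairpin RNA against HNRNPC, a nuclear RNA-binding protein, share the line and carry no drug or other treatment. The hairpin's sequence, its delivery and the number of clones were not given in the sources used here. Nothing in the labels says that the 4 libraries of a group came from separate cultures, so every p-value below measures only the spread between these libraries. The set was selected on roles in heat shock, with a view of its difference in CPM (counts per 1000000 counts of a library) between these 2 groups, which was already known, so that difference is described and not tested.

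Cytosolic chaperones bind unfolded or partly folded proteins. HSP70 proteins take up short hydrophobic stretches, J-domain proteins such as DNAJB1 bring clients and start ATP hydrolysis, and nucleotide exchange factors such as HSPH1 and BAG3 release the client. HSP90 proteins act later, on nearly folded clients such as kinases and steroid receptors, while small heat shock proteins such as HSPB1 hold unfolded proteins without ATP. HSF1 is the transcription factor that, when free of chaperones, forms trimers and binds heat shock elements, inverted repeats of the block GAA, in the promoters of many of these genes. HSPA8 and HSP90AB1 are the constitutive forms, whereas HSPA1A, HSPA1B and HSP90AA1 are the strongly inducible ones.

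The stretches that hold heat shock elements are shown because they are the sequence feature that links these genes to HSF1. The short motif was GAANNTTC or TTCNNGAA, and each is its own reverse complement. The long motif was GAANNTTCNNGAA or TTCNNGAANNTTC, which are reverse complements of each other, so both strands were covered. Each long match holds a pair of overlapping short matches. Only the 250 bases before each RefSeq start were searched, in 14 windows for 9 of the members on build GRCh38.p14. Capitals mark the bases of a short match, and each stretch is written 5′ to 3′ on the gene's strand.
HSP90AA1 (chr14:102087104-102087133, minus strand): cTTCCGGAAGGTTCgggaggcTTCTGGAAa
HSP90AB1 (chr6:44247758-44247863, plus strand): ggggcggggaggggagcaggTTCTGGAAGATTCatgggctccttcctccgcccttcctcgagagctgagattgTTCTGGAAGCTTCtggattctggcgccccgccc
HSPA1A (chr6:31815418-31815463, plus strand): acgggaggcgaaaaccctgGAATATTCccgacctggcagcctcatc
HSPA1B (chr6:31827613-31827660, plus strand): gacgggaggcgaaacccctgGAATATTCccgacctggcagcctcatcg
HSPA8 (chr11:123062353-123062367, minus strand): tGAAAGTTCCAGAAc
HSPA8 (chr11:123062170-123062199, minus strand): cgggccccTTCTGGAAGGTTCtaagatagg
HSPB1 (chr7:76302471-76302518, plus strand): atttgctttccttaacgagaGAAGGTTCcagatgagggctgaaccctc
DNAJB1 (chr19:14518421-14518490, minus strand): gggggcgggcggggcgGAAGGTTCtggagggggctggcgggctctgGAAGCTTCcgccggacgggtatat
Each stretch lies upstream of the RefSeq start it belongs to, but not always upstream of the whole gene. Those of HSP90AA1, HSP90AB1, HSPA8 and DNAJB1 lie inside the gene span given below. The other windows of HSP90AA1, HSP90AB1 and DNAJB1, at other starts, held no match. The stretch of HSP90AA1 and the second of HSPA8 overlap an untranslated region in GENCODE, whose gene and strand were not checked. Of the 9 members with a window, 7 held the short motif and 3 the long one, whereas 13.96% of 27305 RefSeq genes held the short and 0.56% the long motif. Counted over single windows, 11.58% of 35116 held the short and 0.44% the long motif. Each member with a match held it in only 1 window. The genes were chosen for roles in heat shock, so a share above the background was built into the choice, and nothing is read from it. HSP90AB1 and HSPA8 each held the long motif at 2 places, and HSP90AA1 at 1. In HSP90AA1 the first base of the first match lay 88 bases before the start. The HSPA1A and HSPA1B matches lay 106 and 105 bases before their starts, in nearly identical surroundings. The windows of HSPH1 and BAG3 held no match, which says only that these letters are not in those windows. A match is a description of letters and was not tied to binding.

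On GRCh38.p14, HSP90AA1 lies at chr14:102080742-102139749 and HSP90AB1 at chr6:44246194-44253883. HSPA1A (chr6:31815543-31817942) and HSPA1B (chr6:31827738-31830254) are neighbours of 1 exon each. HSPA8 lies at chr11:123057489-123062462, HSPH1 at chr13:31134973-31162388 and HSPB1 at chr7:76302673-76304292. DNAJB1 lies at chr19:14514769-14560391 and BAG3 at chr10:119651380-119677819.

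HNRNPC itself, the targeted gene, stood at 571 to 601 CPM in the control and at 32.5 to 36.5 CPM in the shHNRNPC libraries. The libraries held 28323403 to 34913500 counts in genes. On the first principal component of log2 CPM, with 80.2% of the variance, the groups separated. On the second, with 4.51%, shHNRNPC replicates 1 and 4 lay on one side (14.4 and 6.13) and replicates 2 and 3 on the other (-8.98 and -12.1). Of 12001 genes tested with edgeR's quasi-likelihood test, 77.3% passed an adjusted p of 0.05, 38.7% higher and 38.6% lower in shHNRNPC. Groups did not overlap for 70.8% of the tested genes, and for 35.4% in the higher direction. Of 9 tested epithelial markers, 4 rose (KRT5, DSP, EPCAM and CDH1) and 4 fell (KRT14, KRT6A, TP63 and DSG3). KRT5 stood at 565 and 1123 CPM and TP63 at 176 and 129 CPM in control and shHNRNPC. KRT14 stood at 8.35 and 4.89 CPM. KRT6A, at 6.04 CPM in the controls, had a log2 fold change of -1.62. Those of DSG3 and CDH1 were -0.56 and 0.69. SOX2 was close to 0 (0.053 CPM in the controls) and was not tested. Of 9 markers of other cell types analysed here, 5 stood under 0.3 CPM in both groups. COL1A1 stood at 3.25 and 7.86 CPM, VWF at 1.70 and 0.765 CPM, and CD68, with 85.8% of its exon bases shared with other genes, at 216 and 104 CPM. ACTA2 fell by 1.06 on the log2 scale to 4.80 CPM, with 30.1% of its exon bases shared. The summed level of these markers was 227 to 241 CPM in the controls and 116 to 119 CPM in shHNRNPC. Most of it was CD68, and the other 8 summed to 14.07 to 16.05 CPM in the controls and 13.03 to 14.98 CPM in shHNRNPC. Their part in the results below was not tested. In bulk RNA, fewer cells of a kind and less RNA per cell cannot be told apart.

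All 10 members were past the edgeR threshold in the higher direction, where the background was 38.7%, and 9 did not overlap between the groups, where it was 35.4%. Nothing is read from these counts, since the same contrast stood behind the choice of the genes. The members differed in size. At least 1.4-fold higher were 7, which ran from 147% of the control mean (HSPH1) to 255% (HSP90AA1), and the other 3, HSP90AB1, HSF1 and DNAJB1, from 105% to 114%. The median log2 fold change was 0.64 over the 10 members and -0.01 over all tested genes. CPM values below are scaled by edgeR's trimmed mean of M-values (TMM).

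**Figure D1:**
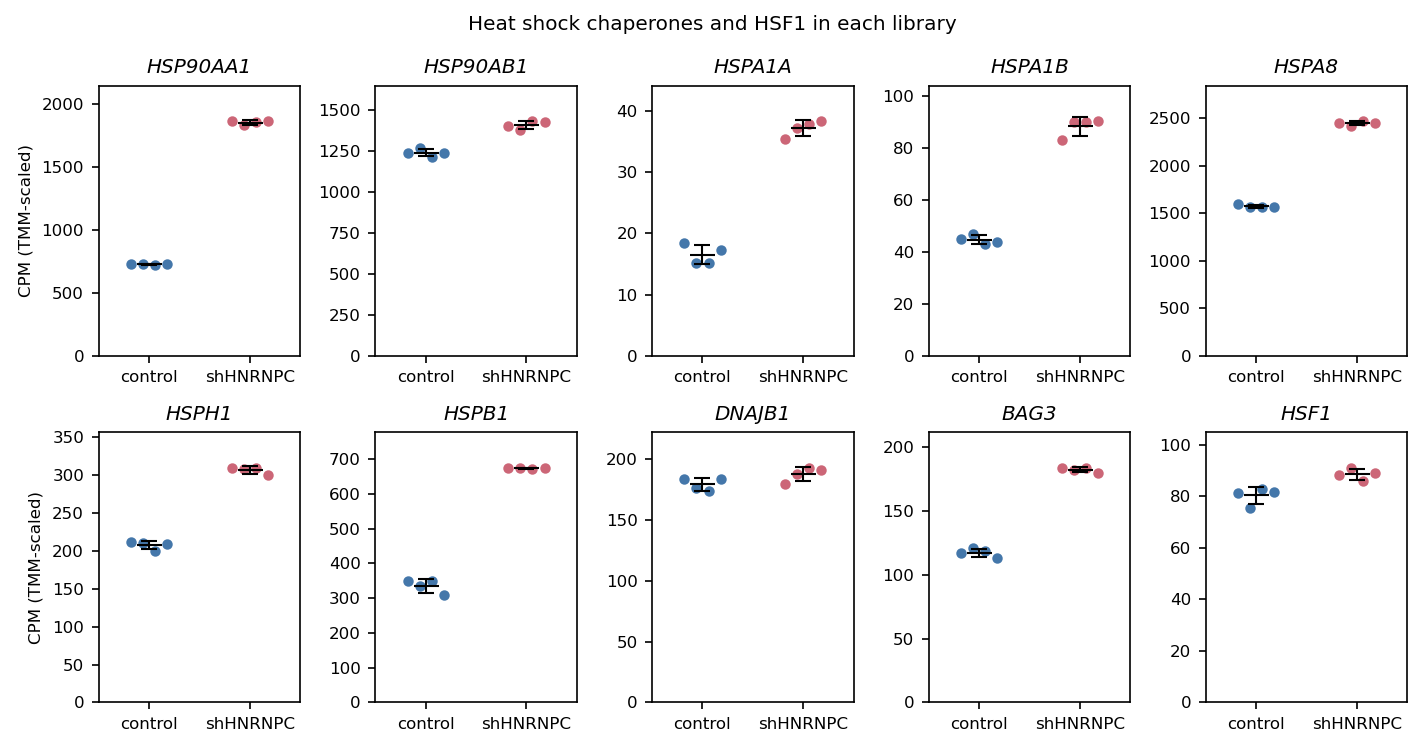
CPM of each member by library on a linear axis, with a point per library and a bar for the mean ± SD of 4 control and 4 shHNRNPC libraries. The groups lie apart for every member but DNAJB1, whose control libraries reach 184 CPM and whose lowest shHNRNPC library is at 179 CPM.

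Of the HSP90 pair, the inducible form showed the larger difference. HSP90AA1 stood at 730.3, 733, 721 and 728 CPM in control replicates 1 to 4. In the shHNRNPC libraries it stood at 1865, 1831, 1859 and 1864 CPM. Every shHNRNPC library was above every control library, and the means were 728 ± 5.11 and 1855 ± 15.96 CPM (SD, n = 4 each), a log2 fold change of 1.35 (SE 0.02). Only 1.5% of the tested genes had a larger rise. HSP90AB1, the constitutive form, stood at 1240.2, 1273, 1216 and 1242 CPM in the controls. It stood at 1404, 1383, 1434 and 1428 CPM with the hairpin. These groups did not overlap either. The means were 1243 ± 23.4 and 1412 ± 23.6 CPM (SD, n = 4 each), only 0.18 apart on the log2 scale (SE 0.02). A larger rise was found in 32.7% of tested genes, a share that leaves out genes that fell. The ratio of HSP90AA1 to HSP90AB1 in CPM was 0.589, 0.576, 0.593 and 0.586 in the controls and 1.33, 1.32, 1.30 and 1.31 in shHNRNPC, which is 2.24 times the control mean. So HSP90AA1 had fewer reads than HSP90AB1 in every control library and more in every shHNRNPC library.

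Among the HSP70 genes, the inducible pair showed the larger relative difference and the constitutive HSPA8 the larger difference in CPM. HSPA1A stood at 18.4, 15.2, 15.2 and 17.3 CPM in the controls and at 35.4, 37.2, 37.8 and 38.3 CPM in shHNRNPC. HSPA1B stood at 44.9, 47.1, 43.1 and 43.8 CPM in the controls and at 83.0, 90.1, 90.1 and 90.3 CPM in shHNRNPC. Neither gene overlapped between the groups, and their log2 fold changes were 1.17 (SE 0.06) and 0.98 (SE 0.04). Both are nearly identical copies: 67.1% of the 150-base windows of the HSPA1A transcript occur exactly in the HSPA1B transcript, and 66.0% the other way, so reads from one could have been counted to the other. If reads that match both were left out, which the sources used here do not say, both genes, their sum, its ratio to HSPA8 and their place per kilobase are too low. In addition, 36.5% of the HSPA1B exon bases overlap the annotated AL671762.1 on the same strand. Their single values are therefore uncertain. Their sum does not depend on the split between the copies and was 61.3 ± 2.14 CPM in the controls and 126 ± 4.78 CPM in shHNRNPC (SD, n = 4 each), 205% of the control mean. The ratio of HSPA1A to HSPA1B was 0.323 to 0.409 in the controls and 0.413 to 0.427 in shHNRNPC, a comparison added after the data were seen.

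HSPA8, the constitutive HSP70 that also uncoats clathrin vesicles, had 1595, 1563, 1561 and 1569 CPM in the controls. It had 2448, 2416, 2467 and 2449 CPM in the shHNRNPC libraries. The libraries of each group lay close together and the groups far apart, with means of 1572 ± 15.8 and 2445 ± 21.4 CPM (SD, n = 4 each) and a log2 fold change of 0.64 (SE 0.02). RefSeq names 20 pseudogenes after HSPA8, but no 150-base window of its transcript occurs exactly in another gene's transcript. The summed inducible pair was 0.0390 ± 0.0011 of HSPA8 in the controls and 0.0514 ± 0.0020 in shHNRNPC (SD, n = 4 each), with no overlap between the groups.

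**Figure D2:**
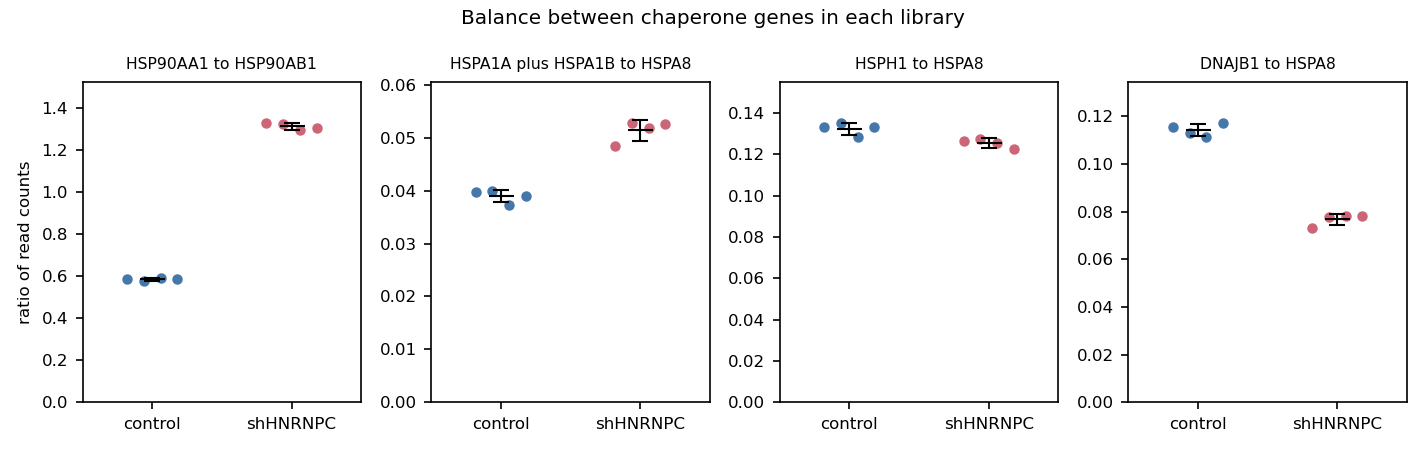
Ratios between members in each library, with a point per library and a bar for the mean ± SD of 4 libraries a group. HSP90AA1 to HSP90AB1 lies at 0.576 to 0.593 in the controls and at 1.30 to 1.33 in shHNRNPC.

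The J-domain protein DNAJB1 differed less between the groups than the exchange factors HSPH1 and BAG3 did. It stood at 184, 176, 174 and 184 CPM in the controls and at 179, 188, 193 and 191 CPM in shHNRNPC. The groups overlapped, since shHNRNPC replicate 1 lay below control replicates 1 and 4. The log2 fold change was 0.07 (SE 0.02, 95% interval 0.02 to 0.11), and 43.3% of tested genes had a larger rise. Its call in the edgeR fit was lost, leaving 9 of the members, without TMM scaling and without control replicate 3 or shHNRNPC replicate 3. Relative to HSPA8, DNAJB1 had 0.114 ± 0.0026 of its CPM in the controls and 0.0768 ± 0.0024 in shHNRNPC (SD, n = 4 each), 0.673 times the control ratio. That ratio was added after the data were seen.

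The exchange factors stood between. HSPH1, an HSP110-type chaperone, ranged from 200.1 to 212 CPM in the controls and from 299.7 to 309.8 CPM in shHNRNPC, a log2 fold change of 0.56 (SE 0.02). BAG3, which links HSP70 to small heat shock proteins and to selective autophagy, ranged from 113 to 121 CPM in the controls and from 179.9 to 184 CPM in shHNRNPC, a log2 fold change of 0.64 (SE 0.02). Neither overlapped between the groups. The ratio of HSPH1 to HSPA8 was 0.132 ± 0.0029 in the controls and 0.125 ± 0.0022 in shHNRNPC (SD, n = 4 each), the smallest shift of the 5 ratios computed.

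HSPB1, the small heat shock protein HSP27, stood at 348, 334, 349.8 and 308 CPM in the controls and at 673, 675, 672 and 673 CPM in shHNRNPC. The control libraries were spread, with replicate 4 lowest, and the shHNRNPC libraries almost coincided, with a coefficient of variation of 5.78% against 0.162%. The log2 fold change was 1.01 (SE 0.03), and 3.17% of tested genes had a larger rise. HSF1, the transcription factor itself, ranged from 75.3 to 82.9 CPM in the controls and from 85.8 to 91.0 CPM in shHNRNPC. Its groups did not overlap, but the log2 fold change was only 0.14 (SE 0.03). These are transcript levels, and HSF1 protein, its trimers and its binding were not measured.

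**Figure D3:**
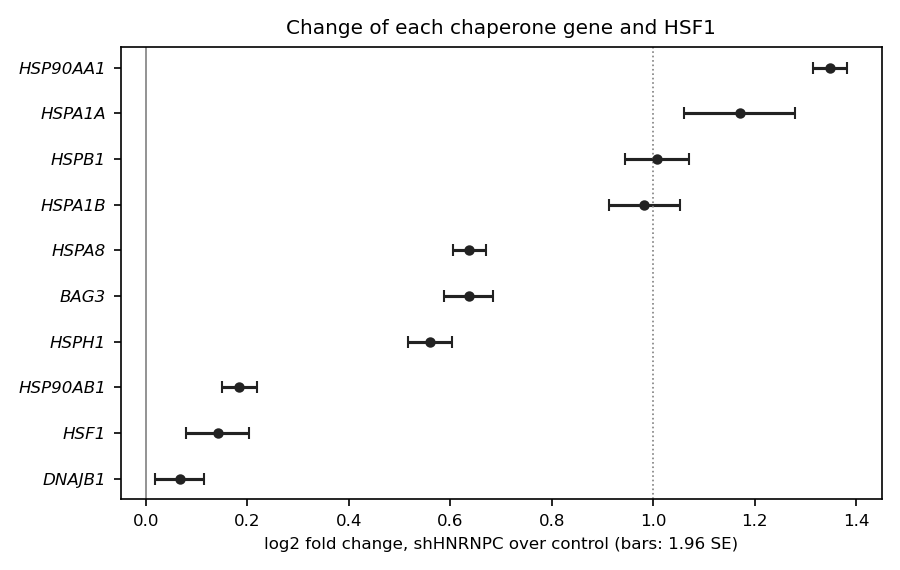
Log2 fold change of shHNRNPC over control for each member, with a point for the estimate over 4 and 4 libraries and a bar for the normal 95% interval from its SE. HSP90AA1 lies highest at 1.35 and DNAJB1 lowest at 0.07.

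Summed over the 10 members, the libraries held 4524 ± 42.6 CPM in the controls and 7276 ± 56.7 CPM in shHNRNPC (SD, n = 4 each). As a share of all counts this was 0.456 ± 0.0037% and 0.722 ± 0.0040%. HSP90AA1 made up 40.9% of the difference, HSPA8 31.7% and HSPB1 12.3%. Per kilobase of the main GENCODE transcript, HSPA8 was highest in the controls (638 ± 6.42 CPM per kb), followed by HSP90AB1 (465 ± 8.74), HSPB1 (368 ± 21.3) and HSP90AA1 (216 ± 1.51). With the hairpin the order was HSPA8 (993 ± 8.71 CPM per kb), HSPB1 (741 ± 1.2), HSP90AA1 (549 ± 4.72) and HSP90AB1 (528 ± 8.81). These 4 were followed in both groups by DNAJB1, BAG3, HSPH1, HSF1, HSPA1B and HSPA1A, of which HSPH1 and HSF1 lay nearest to each other in the controls (40.1 and 37.5 CPM per kb). The order depends on the length used: per kilobase of all exon bases of the gene, HSP90AB1 led HSPA8 in the controls (417 against 324 CPM per kb), and HSP90AA1 was the lowest of the 4 in both groups. On that scale HSPA1B also lay above HSF1 (17.7 against 15.1 CPM per kb in the controls, 35.05 against 16.7 in shHNRNPC), and BAG3 above DNAJB1 in shHNRNPC (66.4 against 51.2).

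**Figure D4:**
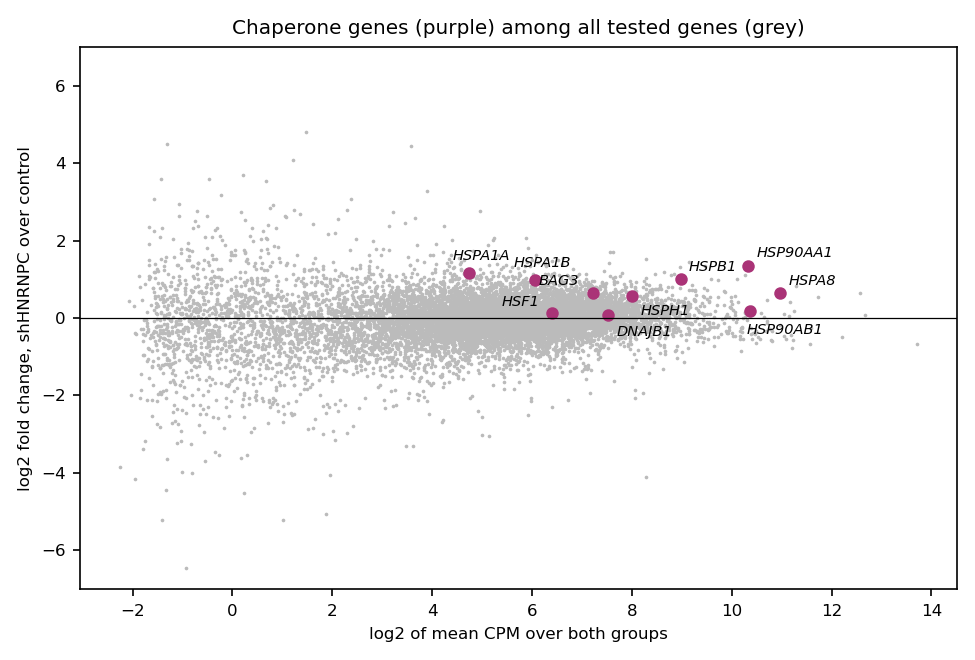
Log2 fold change of shHNRNPC over control against the log2 of mean CPM over both groups, for 12001 tested genes in grey and the 10 members in purple, 1 point a gene. The members all lie above 0, and HSP90AA1, HSPA8 and HSP90AB1 lie among the most abundant genes.

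The genes whose log2 CPM relative to the control mean lay nearest to that of a member, over 8 libraries and among 8163 genes of at least 20 CPM, were listed for the members of largest difference. For HSP90AA1 these were ANLN, GANAB, ELOVL6, AFAP1 and PPP2R1B, at a root mean square distance of 0.02 to 0.04. For HSPA1A they were NFIA, MCM6, RPUSD4, INPP5A and IGSF3, at 0.05 to 0.07. For HSPB1 they were VWA1, MKI67, PAIP1, CENPF and NECTIN2, at 0.03 to 0.04. The 8 libraries share their 2-group split, which alone makes genes of like fold change lie near.

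The other genes of the chaperone network, none of them a member, were tested in the same edgeR fit. Grouped by role into 10 lists, they were 133 genes. Of the 121 tested, 72 rose (59.5%), 28 fell (23.1%) and 21 did not pass, and the median log2 fold change was 0.14. Over all genes tested the shares were 38.7% and 38.6% and the median was -0.01. The lists were drawn up with earlier results of these data known and share some genes, so their counts are not independent evidence of a direction.

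Among HSP90 paralogs and co-chaperones, 12 of 19 rose and 3 fell, with a median of 0.15. FKBP5, a steroid receptor immunophilin, went from 19.5 ± 0.71 to 42.3 ± 2.09 CPM (SD, n = 4 each; log2 fold change 1.12, edgeR adjusted p = 7.7e-30). FKBP4, its close relative, went from 262 ± 6.72 to 441 ± 7.02 CPM (0.75, edgeR adjusted p = 1.9e-41). HSP90B1 of the endoplasmic reticulum and CHORDC1 rose by 0.78 and 0.65 on the log2 scale. Among HSP70 paralogs, 4 of 10 tested rose and 6 fell, with a median of -0.18. HSPA4L, an HSP110-type gene like HSPH1, rose from 34.2 ± 0.62 to 73.6 ± 2.58 CPM (1.11, edgeR adjusted p = 7.2e-36), and HSPA2 rose by 1.07. HSPA13 fell by 0.77, and HSPA1L, at 1.13 and 0.514 CPM, fell by 1.12. Among nucleotide exchange factors and the BAG family, 4 of 8 tested rose and 3 fell (median 0.04). GRPEL2 of the mitochondrial matrix fell by 1.2, BAG1 and BAG4 rose by 0.36 and 0.29, and SIL1 fell by 0.22.

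Of the cytosolic and nuclear J-domain proteins, 12 of 21 tested rose and 4 fell (median 0.11). DNAJA1, a partner of HSPA8, rose from 122 ± 4.85 to 206 ± 1.56 CPM (log2 fold change 0.75, edgeR adjusted p = 9.1e-37), a larger change than the 0.07 of DNAJB1. DNAJB4, DNAJC27 and DNAJB6 rose by 0.75, 0.72 and 0.52. Of the genes listed here as small heat shock proteins, 3 of 9 could be tested, of which 2 rose and 1 fell. HSPB8, the partner of BAG3 in autophagy, rose from 27.5 ± 0.78 to 52.6 ± 3.07 CPM (0.94, edgeR adjusted p = 2.6e-28), and HSPB11 rose by 0.24. The one that fell was HSPB6, named after its value was seen, at 0.643 and 0.0869 CPM, with 38.2% of its exon bases shared with another gene.

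In the HSF family and among HSF1 regulators, 7 of 12 tested rose and 3 fell (median 0.21). VCP, an ATPase that extracts ubiquitylated proteins, rose by 0.56, and FBXW7, a ubiquitin ligase subunit that targets HSF1, rose by 0.50. HSF4 fell by 0.63, with 31.4% of its exon bases shared with other genes. HSF2BP stood at 1.86 ± 0.10 and 1.19 ± 0.51 CPM (SD, n = 4 each) with overlapping groups, and its fall of 0.66 (edgeR adjusted p = 0.011) was lost without shHNRNPC replicate 3 (-0.40, edgeR adjusted p = 0.1).

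Of 20 tested further heat shock inducible HSF1 targets, 17 rose and 1 fell, with a median of 0.47. HSPA4L, HSPB8 and DNAJA1 are among them, with the values above, and HSPE1, the cofactor of the mitochondrial chaperonin, rose from 5.57 ± 0.68 to 10.6 ± 0.97 CPM (0.93, edgeR adjusted p = 8.6e-13), with 23.9% of its exon bases shared with other genes. RefSeq names 28 pseudogenes after HSPE1, and how reads that match several places were counted was not given in the sources used here, so its level may be too low. HSPD1, the mitochondrial chaperonin itself, rose by 0.47 from 506 to 701 CPM. The gene that fell was IER5, named after its value was seen, from 87.6 ± 2.82 to 58.2 ± 1.97 CPM (-0.59, edgeR adjusted p = 1.1e-24). ZFAND2A, at 34.7 and 32.9 CPM, and PTGES3, at 291 and 299 CPM, did not pass, and without shHNRNPC replicate 1 ZFAND2A joined IER5, for 2 that fell. HSPA6, a gene that is close to silent without stress, had 0 counts in each control library and 3, 2, 5 and 4 counts in the shHNRNPC libraries, and did not pass the filter on low counts. With no filter it was called higher (edgeR adjusted p = 0.0004), which makes 18 of the list that rose and 5 of the HSP70 paralogs, and DESeq2 called it as well (adjusted p = 0.0052). In 11 of the 18 genes of this list with a promoter window the short motif occurred (61.1%), and in 4 the long one (22.2%). Over all RefSeq genes the shares were 13.96% and 0.56%. The list was drawn up as HSF1 targets, so a share above the background was built in, and nothing is read from it.

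The motif by itself was shared by many genes that are neither members nor on a list. Of 33 such tested genes with the long motif, 13 rose and 14 fell (39.4% and 42.4%). Of 1169 with the short motif, 37.8% rose and 40.3% fell. Of 8610 with neither, 38.6% rose and 38.5% fell. With the list genes kept, 37 tested genes had the long motif, of which 17 rose and 14 fell.

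Chaperones of other kinds and places were also counted. Of the cytosolic chaperonin TRiC and prefoldin, 9 of 14 rose and 1 fell (median 0.12). CCT3 and CCT6A rose by 0.50 and 0.42, and CCT2 and CCT8 by 0.26 and 0.23. PFDN2, named after its value was seen, was the gene that fell (-0.10), and its call was lost without control replicate 1, shHNRNPC replicate 1 or shHNRNPC replicate 2, leaving 0. Of the chaperones of the endoplasmic reticulum, 13 of 18 rose and 4 fell (median 0.52). CALR rose from 245 ± 9.19 to 557 ± 1.56 CPM (1.18, edgeR adjusted p = 1.8e-51), and HSPA5 and PDIA4 rose by 0.73 and 0.66. In the mitochondrial list 5 of 14 rose and 6 fell (median -0.01). DNAJA3 and LONP1 fell by 0.68 and 0.52.

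**Figure D5:**
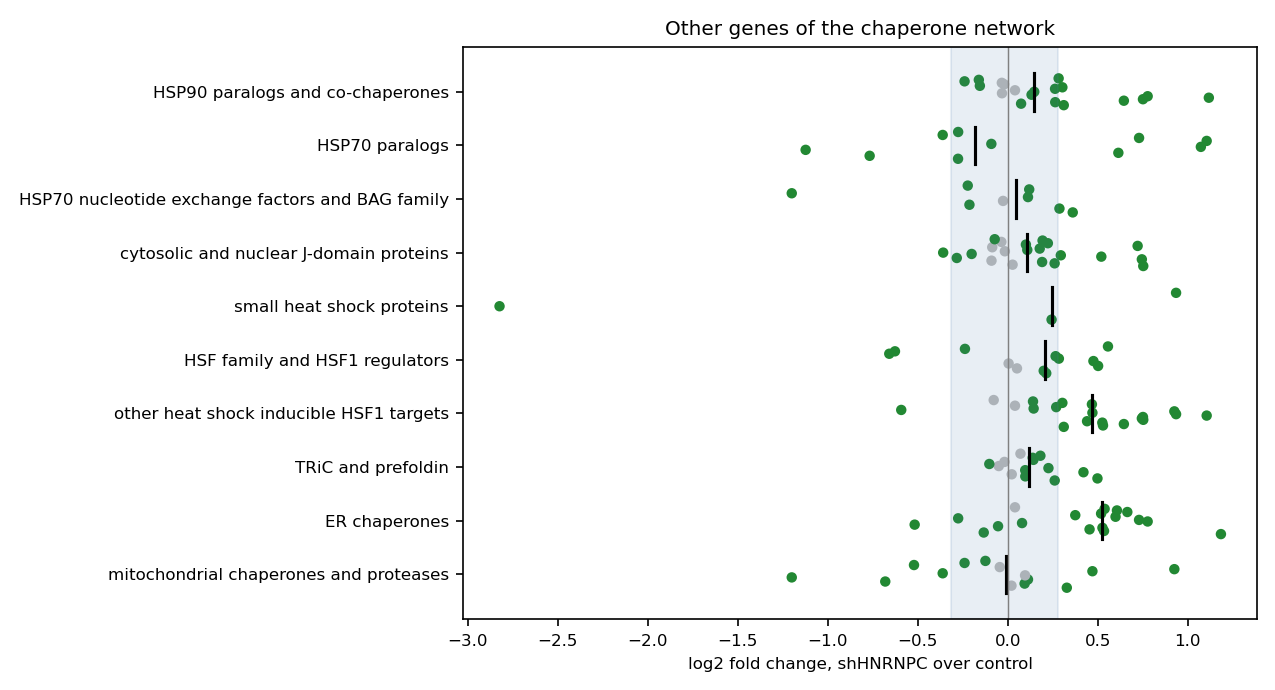
Log2 fold change of shHNRNPC over control for the tested genes of 10 chaperone lists, 1 point a gene, green where the edgeR adjusted p was under 0.05 and grey otherwise. Black bars are list medians and the shaded band holds the middle of all tested genes, from -0.31 to 0.28, and the medians of the other heat shock inducible HSF1 targets and the chaperones of the endoplasmic reticulum lie above it.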

How the data were processed

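The authors deposited 1 table of whole-number counts per gene for 8 libraries. Per the labels' protocols, RNA was extracted with TRIzol and libraries were made from polyadenylated RNA. The series' design text gives paired-end reads and trimming with fastp, and the submitters' processing notes give build hg38. The aligner, the counter, its strand setting and the annotation release were not given in the sources used here, so overlapping genes are marked where over 20% of exon bases are shared, in GENCODE annotation.

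Computed here: edgeR 4.0.16 in R 4.3.3, with its default filter (minimum count 10, minimum total 15), TMM scaling, a quasi-likelihood fit over all 12001 genes that passed and Benjamini-Hochberg adjustment with a threshold of 0.05. CPM divides counts by TMM-scaled totals. SE is the log2 fold change over the root of the F statistic. DESeq2 1.42.0 was an alternative. The fit was tested on simulated data in which most genes did not differ, unlike here, so nothing is read from that test. Promoter windows are RefSeq's, and 9 of 10 members matched; transcript lengths and shared 150-base windows are GENCODE's.

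From each list the text names up to 4 called genes of largest change that reached 1 CPM in either group, and abundant ones by level. The members and lists were chosen with earlier results of these data known. The alternatives, 15 in all, were other scaling, filters, DESeq2, a replicate block, summed HSPA1A and HSPA1B, and left-out libraries. Chi-square per degree of freedom between libraries of a group was 2.66 to 3.70, so none repeated another within sampling noise. Some genes of the lists are counted but not reported singly here.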

Additional observations from a re-analysis of the deposited data

Results flagged for a closer look

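In 7 of the 110 groups of 4 libraries examined, 1 library lay far from the other 3, and chance marks about 1 in 20 groups. HSPA1B in shHNRNPC replicate 1 was at 82.98 CPM, with the other 3 at 90.1 to 90.3. HSPH1 in shHNRNPC replicate 4 was at 299.7 CPM, with the others at 308 to 309.8. The ratio of DNAJB1 to HSPA8 in shHNRNPC replicate 1 was 0.0733, with the others at 0.0776 to 0.0783. HSPA2 in control replicate 1 was at 5.05 CPM, with the others at 3.91 to 3.999. CCT3 in control replicate 3 was at 283 CPM, with the others at 299 to 300.3. HSPA5 in control replicate 3 was at 536 CPM, with the others at 548 to 550.2, and in shHNRNPC replicate 2 at 922 CPM, with the others at 899 to 901.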

How the results depend on the processing

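Only the members and the genes picked from each list by the naming rule were checked for a change of direction. None of these reversed under any alternative run. Over them the members' log2 fold changes stayed within 1.33 to 1.36 for HSP90AA1, 0.16 to 0.20 for HSP90AB1, 1.04 to 1.22 for HSPA1A, 0.96 to 1.04 for HSPA1B, 0.62 to 0.65 for HSPA8 and 0.05 to 0.09 for DNAJB1. The 1.04 that bounds both HSPA1A and HSPA1B is the value of their summed counts, not of either gene. Without TMM, HSP90AA1 was at 1.33 and HSPA8 at 0.62, and 2 genes of TRiC and prefoldin fell rather than 1. With a filter of 1 CPM, 0 small heat shock proteins fell rather than 1. Leaving out 1 library at a time gave 1 to 2 falling heat shock inducible HSF1 targets, 0 to 1 falling genes of TRiC and prefoldin, and 9048 to 9151 genes past the threshold, against 9275. Without shHNRNPC replicates 1 and 4 there were 8825, and 18 inducible HSF1 targets rose and 1 fell. The replicate numbers did not pair the libraries (same-number correlations of deviations -0.06 to 0.02, and not every library correlated best with its own number), and with a replicate block 9219 genes passed and all 10 members remained past the threshold. Limits: without stated strand or counter, HSPA1A and HSPA1B and overlapping genes cannot be separated, and HSPA6, UBB and CRYAB did not pass the filter on low counts. With no filter or with DESeq2, HSPA6 was called higher (5 HSP70 paralogs and 18 inducible targets rose), and UBB and CRYAB were not called.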

Other observations

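Groups of the deposited gene ontology annotation were counted with the members left out, after the data were seen. Of 45 tested genes annotated to heat shock protein binding, 28 rose and 11 fell (62.2% and 24.4%, median log2 fold change 0.22). Of 89 annotated to unfolded protein binding, 47 rose and 24 fell (52.8% and 27.0%, 0.10). Of 29 annotated to the cellular response to heat, 16 rose and 9 fell (55.2% and 31.0%, 0.13). Of 63 annotated to its regulation, 38 rose and 12 fell (60.3% and 19.0%, 0.11). Over all genes tested, 38.7% rose and 38.6% fell, with a median of -0.01. These groups share genes with each other and with the lists above, so their counts are not independent evidence of a direction. HSPE1 stood at 5.57 CPM and HSPD1, which shares a bidirectional promoter with it, at 506 CPM in the controls.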
